A study of Mus musculus with 17 samples.

Results

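Regulatory T cell genes were followed in whole mouse lung across an allergen model and an antibody treatment. The set is a list of 9 genes, found by gene symbol among the array's probe sets that carry 1 symbol, out of 19751 genes measured. Each of the 9 had a single probe set. The matching used gene names, but the list was drawn up with earlier results of these data known. The members are Foxp3, Ikzf2, Il2ra, Il10, Tnfrsf18, Tnfrsf4, Tnfrsf9, Tigit and Lrrc32.

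Lung RNA of 17 Balb/c mice was measured with 1 Affymetrix Mouse Gene 1.0 ST array per mouse. The anti-RGMb group (6 mice) was sensitized and challenged with ovalbumin (OVA), a model allergen, and was given an anti-RGMb monoclonal antibody, RGMb being a membrane co-receptor for bone morphogenetic proteins. The isotype group (5 mice) had the same OVA sensitization and challenge with an isotype antibody, and the saline group (6 mice) received saline at both steps. No antibody is stated for saline mice, and no group had anti-RGMb without OVA, so isotype minus saline holds the allergen together with any action of the isotype antibody. Age, antibody dose and day are not given, and the groups were harvested at a common time. The study describes 2 replicate sets, called experiments 1 and 2 here without more being stated of how they differ, each with 3 mice in a group except for 2 isotype mice in experiment 2, whose mice are numbered 1-2, 2-2 and 3-2.

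Regulatory T cells are CD4 T cells that restrain other immune cells and that accumulate in allergic airways together with effector T cells. Their identity rests on the transcription factor Foxp3, they take up interleukin-2 through a receptor rich in CD25, and they act through inhibitory receptors, interleukin-10 and transforming growth factor beta. Most of the other genes in the set are shared with cells found in the same lung: CD25, OX40, 4-1BB, GITR and TIGIT also appear on activated effector T cells, CD25 on group 2 innate lymphoid cells, IL-10 in macrophages and B cells, and the Lrrc32 product GARP on platelets and endothelium.

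RefSeq promoter windows (250 bases upstream of an annotated start, mouse reference GRCm38.p6, C57BL/6J) were found for 6 of the 9 members, in 8 windows. Shown here are those of Foxp3, the lineage gene, and of Il2ra and Tnfrsf9, the members with the largest changes above saline. Capitals mark a TATA box (TATAAA), the forkhead core TGTTTA on either strand (TAAACA is its reverse complement), or the NF-κB consensus. The windows lie at chrX:7579426-7579675 (+) for the first annotated start of Foxp3, chr2:11642542-11642791 (+) for Il2ra and chr4:150919905-150920154 (+) for the first annotated start of Tnfrsf9.
Foxp3: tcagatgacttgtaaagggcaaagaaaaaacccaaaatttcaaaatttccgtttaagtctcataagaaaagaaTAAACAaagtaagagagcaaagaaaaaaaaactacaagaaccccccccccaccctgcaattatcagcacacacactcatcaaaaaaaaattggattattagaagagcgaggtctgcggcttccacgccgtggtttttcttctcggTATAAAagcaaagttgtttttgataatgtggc
Il2ra: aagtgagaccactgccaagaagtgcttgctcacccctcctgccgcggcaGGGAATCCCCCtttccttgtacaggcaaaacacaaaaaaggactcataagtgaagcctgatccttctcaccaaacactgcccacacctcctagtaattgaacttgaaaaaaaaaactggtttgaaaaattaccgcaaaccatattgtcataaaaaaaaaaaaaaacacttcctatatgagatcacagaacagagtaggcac
Tnfrsf9: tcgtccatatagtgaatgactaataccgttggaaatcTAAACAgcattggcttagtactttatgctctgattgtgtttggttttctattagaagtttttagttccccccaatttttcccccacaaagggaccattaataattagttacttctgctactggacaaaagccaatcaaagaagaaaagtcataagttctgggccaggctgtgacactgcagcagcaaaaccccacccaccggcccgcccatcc
The Foxp3 window holds a TATAAA 32 to 27 bases before the start, a motif found on the gene's strand in 7.59% of 32851 RefSeq windows of this length. The Il2ra window holds a pair of overlapping NF-κB matches in the run GGGAATCCCCC, and 7.25% of all windows hold at least 1 match. Among the member windows, 2 of 8 had the NF-κB consensus (Il2ra and the second Tnfrsf9 window), 3 of 8 the STAT motif TTCNNNGAA (7.02% of all windows), 2 of 8 the forkhead core (3952 of all windows) and 1 of 8 the AP-1 motif TGANTCA (6.75%). The NFAT core GGAAA, on either strand, was in 8 of 8 member windows and in 55.6% of all windows. Apart from TATAAA, motifs were searched on both strands and may overlap. A match is only a run of letters in the window.

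The deposited values are linear probe set intensities. Array medians lay between 120 and 125 in experiment 1 and between 362 and 386 in experiment 2, so levels are compared only within an experiment. Ranks of genes on an array and summed marker levels do set probe sets side by side, and bright probe sets weigh more in the sums. Within an experiment the arrays correlated across genes at 0.975 or more (experiment 1) and 0.968 or more (experiment 2). The lung genes Sftpc, Scgb1a1 and Ager stood at or above the 99.3rd percentile on all arrays. Differences are in log2 units from a limma model with the experiment as a term, ± standard error, and a change is called at a Benjamini-Hochberg adjusted p under 0.05 over 19751 genes. In bulk lung, fewer cells of a type and less RNA per cell cannot be told apart.

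Against saline mice, isotype mice had more RNA for 8 of the 9 regulatory T cell genes, 0 were lower and Lrrc32 did not pass. Across all genes 35.6% passed in this comparison, 14.6% higher and 21.0% lower. The median difference of the 9 was 0.76, against -0.04 over all genes. Against isotype mice, anti-RGMb mice were lower for 7 members and higher for 0, with Tnfrsf18 and Lrrc32 not past, where 21.2% of all genes passed, 11.1% higher and 10.0% lower. The members' median was -0.55 and that of all genes 0.03. Against saline mice, anti-RGMb mice were still higher for 6 members and lower for 0, where 6.5% of all genes passed, 4.26% higher and 2.24% lower, with a median of 0.38 against -0.01 for all genes. Each pair of these comparisons shares 1 group of mice.

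**Figure D1:**
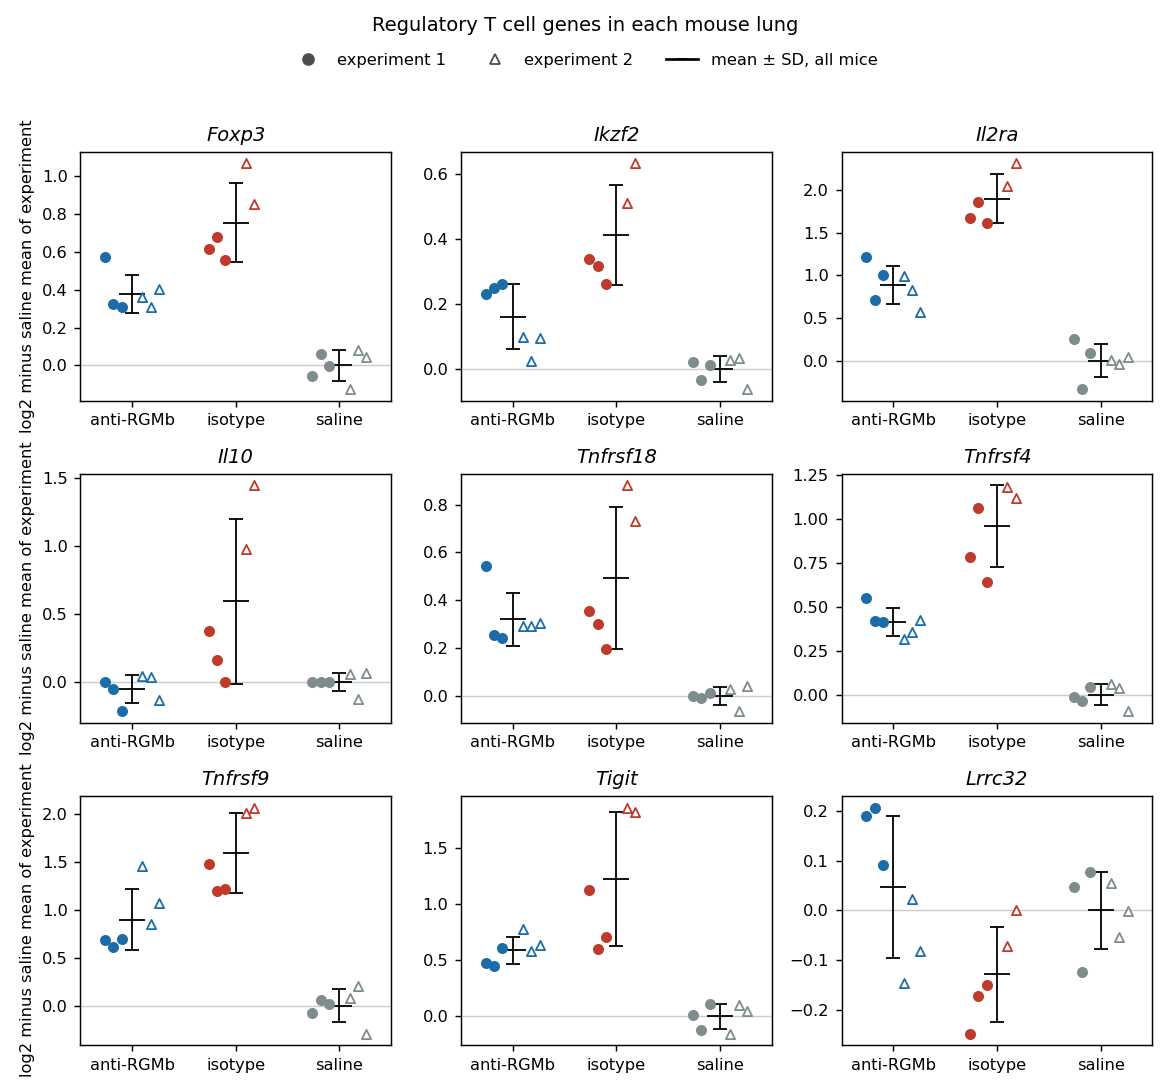
Log2 level of each member in each mouse, after subtraction of the saline mean of its own experiment (y axis, scale differs by panel), for anti-RGMb, isotype and saline mice (left to right). Filled circles are experiment 1, open triangles experiment 2, and bars give mean ± SD over all mice of a group. For Foxp3 the means are 0.38 in anti-RGMb and 0.75 in isotype mice, and Il10 is raised mainly in the isotype mice of experiment 2.

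Foxp3, the transcription factor that defines the lineage, read 128.8, 108.5 and 107.3 in anti-RGMb mice, 132.9, 138.7 and 127.5 in isotype mice and 83.3, 90.5 and 86.4 in saline mice of experiment 1. In experiment 2 it read 283.4, 272.7 and 291.5 with anti-RGMb, 462.3 and 398.0 with isotype and 202.1, 233.7 and 227.3 with saline. Every OVA-exposed mouse stood above every saline mouse of its experiment, and anti-RGMb mice lay below isotype mice in experiment 2 but overlapped them in experiment 1, through anti-RGMb mouse 1. Isotype exceeded saline by 0.76 ± 0.08 (1.70-fold, adjusted p = 4.93e-07, limma). Anti-RGMb was at -0.38 ± 0.08 relative to isotype (0.767-fold, adjusted p = 0.0016) and 0.38 ± 0.07 above saline (adjusted p = 0.00322). The call against saline was lost with experiment 2 fitted alone (0.36, adjusted p = 0.0973, limma). In the model of both experiments the experiment 2 difference passed (adjusted p = 0.0279). Under an exact permutation of mice within experiments the anti-RGMb minus isotype call was lost (p = 0.01, adjusted p = 0.0586), as was that against saline (p = 0.005, adjusted p = 0.0583, the smallest that comparison can give). Within experiments the anti-RGMb minus isotype difference was -0.22 ± 0.08 in experiment 1 (adjusted p = 0.162, not past) and -0.60 ± 0.09 in experiment 2 (adjusted p = 0.00029), and the 2 values did not differ past the threshold (-0.39 ± 0.13, adjusted p = 0.232).

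Ikzf2 encodes Helios, a transcription factor of most thymus-derived regulatory T cells. Its readings were 130.5, 132.0 and 133.3 in anti-RGMb mice, 140.3, 138.5 and 133.2 in isotype mice and 112.7, 108.6 and 112.0 in saline mice of experiment 1. Those of experiment 2 were 363.0, 344.4 and 362.3 with anti-RGMb, 482.1 and 525.0 with isotype and 345.2, 347.1 and 324.4 with saline. Isotype mice were above saline mice in both experiments, while anti-RGMb mice sat near isotype mice in experiment 1 and near saline mice in experiment 2. Isotype minus saline was 0.41 ± 0.07 (adjusted p = 7.36e-05), anti-RGMb minus isotype -0.25 ± 0.07 (adjusted p = 0.0101) and anti-RGMb minus saline 0.16 ± 0.06 (adjusted p = 0.152, not past), all by limma. The anti-RGMb minus isotype call was lost under the exact permutation (adjusted p = 0.0586). With arrays weighted by quality, the anti-RGMb minus isotype call was lost (-0.17, adjusted p = 0.0541) and that against saline gained (0.17, adjusted p = 0.0278). Anti-RGMb minus isotype was -0.06 in experiment 1 and -0.50 in experiment 2, and this difference between experiments passed (-0.44 ± 0.09, adjusted p = 0.0378).

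Il2ra, the gene of CD25, the alpha chain of the interleukin-2 receptor, had the largest member difference both for isotype over saline and for anti-RGMb under isotype. Experiment 1 gave 130.2, 92.2 and 112.7 in anti-RGMb mice, 179.0, 203.4 and 172.2 in isotype mice and 67.1, 44.5 and 59.6 in saline mice. Experiment 2 gave 520.4, 465.1 and 390.5 with anti-RGMb, 1084.6 and 1302.0 with isotype and 262.7, 254.0 and 270.0 with saline. No mouse of 1 group overlapped another group in either experiment, and anti-RGMb mice lay between the other groups. The isotype level was 3.75 times that of saline (log2 1.91 ± 0.13, adjusted p = 4.73e-09, limma), a change at the 99.3rd percentile of all genes. The anti-RGMb level was 0.493 times that of isotype (-1.02 ± 0.13, adjusted p = 3.81e-05) and 1.85 times that of saline (0.89 ± 0.12, adjusted p = 0.00016). The call against saline was lost under the exact permutation (p = 0.005, adjusted p = 0.0583). That p is the smallest this comparison can give, and no gene passed there.

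Il10 encodes the cytokine interleukin-10, which dampens antigen presentation and inflammatory cytokines. It was dim, below the lower quartile of genes on all 17 arrays. In experiment 1 it read 13.4, 12.9 and 11.5 in anti-RGMb mice, 17.4, 14.9 and 13.4 in isotype mice and 13.4 in each saline mouse. The deposited value was identical to all digits on 5 of the 9 arrays of experiment 1, so the saline spread there is 0 and no fine order can be read from it. In experiment 2 it read 41.6, 41.4 and 36.8 with anti-RGMb, 79.6 and 109.9 with isotype and 42.1, 37.1 and 42.3 with saline. Both isotype mice of experiment 2 stood clear of all others, and elsewhere the groups touched or overlapped. Pooled, isotype exceeded saline by 0.62 ± 0.16 (adjusted p = 0.0043) and anti-RGMb was at -0.68 ± 0.16 relative to isotype (adjusted p = 0.00452) and at -0.06 ± 0.15 relative to saline (adjusted p = 0.911), by limma. Isotype minus saline was 0.18 in experiment 1 (adjusted p = 0.356) and 1.21 in experiment 2, a difference that passed (1.03 ± 0.17, adjusted p = 0.00961), as did that of anti-RGMb minus isotype (-0.27 and -1.23, difference -0.96 ± 0.17, adjusted p = 0.0262). Within experiment 1 alone no Il10 difference passed, and under the exact permutation neither isotype minus saline (adjusted p = 0.0567) nor anti-RGMb minus isotype (adjusted p = 0.0586) did.

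3 members encode costimulatory receptors of the tumour necrosis factor receptor family, which support survival and activation of T cells and are high on regulatory T cells. Tnfrsf4 (OX40) and Tnfrsf18 (GITR) are adjacent protein-coding genes on chromosome 4, which also holds Tnfrsf9 (4-1BB). Tnfrsf4 read 91.8, 84.0 and 83.6 in anti-RGMb, 108.1, 131.2 and 98.0 in isotype and 62.2, 61.2 and 64.7 in saline mice of experiment 1. In experiment 2 the values were 356.7, 367.0 and 385.3 with anti-RGMb, 651.4 and 622.0 with isotype and 298.8, 293.9 and 268.1 with saline. The 3 groups did not overlap in either experiment. Isotype minus saline was 0.97 ± 0.08 (1.95-fold, adjusted p = 4.9e-08), anti-RGMb minus isotype -0.55 ± 0.08 (adjusted p = 0.000113) and anti-RGMb minus saline 0.41 ± 0.08 (adjusted p = 0.0022), by limma. Under the exact permutation the anti-RGMb minus saline call was lost (p = 0.005, adjusted p = 0.0583). It had the smallest p this comparison can give, and no gene passed there.

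For Tnfrsf9 the readings of experiment 1 were 152.8, 145.7 and 154.8 in anti-RGMb mice, 265.0, 219.2 and 221.2 in isotype mice and 90.3, 99.5 and 96.1 in saline mice. Experiment 2 gave 641.7, 423.0 and 493.5 with anti-RGMb, 945.0 and 982.9 with isotype and 247.4, 270.4 and 191.0 with saline. Again no group overlapped another, and anti-RGMb mice held the middle place. Isotype rose 3.11-fold over saline (1.63 ± 0.13, adjusted p = 3.3e-08), and anti-RGMb was 0.600 times isotype (-0.74 ± 0.13, adjusted p = 0.000632) and 1.86 times saline (0.90 ± 0.13, adjusted p = 0.000153) in the limma fit. The exact permutation lost the anti-RGMb minus saline call (p = 0.005, adjusted p = 0.0583), at the smallest p possible in that comparison, where no gene passed.

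Tnfrsf18 readings were 140.6, 115.0 and 114.1 in anti-RGMb, 123.3, 118.8 and 110.4 in isotype and 96.5, 95.7 and 97.3 in saline mice of experiment 1. In experiment 2 they were 366.6, 366.6 and 370.0 with anti-RGMb, 552.0 and 498.0 with isotype and 305.5, 286.3 and 307.9 with saline. OVA-exposed mice stood above saline mice in both experiments, and anti-RGMb and isotype mice were mixed in experiment 1 but apart in experiment 2. Isotype minus saline was 0.51 ± 0.09 (adjusted p = 0.000287, limma). Anti-RGMb minus isotype was -0.18 ± 0.09 (adjusted p = 0.186, not past, 95% interval -0.38 to 0.01), at 0.06 in experiment 1 and -0.51 in experiment 2, and the experiments differed (-0.58 ± 0.12, adjusted p = 0.0427). With 1 mouse left out it ran between -0.25 (without anti-RGMb mouse 1, adjusted p = 0.0484) and -0.09 (without isotype mouse 1-2, adjusted p = 0.468). Anti-RGMb exceeded saline by 0.32 ± 0.09 (adjusted p = 0.036), a call lost in 6 of the 17 fits that left out 1 mouse each (without anti-RGMb mouse 1, 2 or 3 or saline mouse 1-2, 2-2 or 3-2, highest adjusted p = 0.0915) and with mouse numbers as a block (0.32, adjusted p = 0.0776). Neither experiment kept it when fitted alone by limma (0.35, adjusted p = 0.0674 in experiment 1, and 0.30, adjusted p = 0.0919 in experiment 2). The anti-RGMb minus saline call was also lost under the exact permutation (p = 0.005, adjusted p = 0.0583). No gene passed there, and its p was the smallest possible.

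Tigit encodes an inhibitory receptor of T and natural killer cells that binds the poliovirus receptor family. It read 119.6, 117.7 and 131.5 in anti-RGMb, 188.1, 130.8 and 141.0 in isotype and 86.6, 79.3 and 92.7 in saline mice of experiment 1. In experiment 2 it read 685.1, 598.5 and 619.9 with anti-RGMb, 1454.1 and 1419.4 with isotype and 359.1, 429.5 and 412.6 with saline. OVA-exposed mice were above saline mice throughout, and anti-RGMb overlapped isotype by 1 mouse in experiment 1 and was far below it in experiment 2. The limma differences were 1.26 ± 0.15 for isotype minus saline (2.40-fold, adjusted p = 3.89e-06), -0.67 ± 0.15 for anti-RGMb minus isotype (adjusted p = 0.00399) and 0.59 ± 0.15 for anti-RGMb minus saline (adjusted p = 0.0189). The call against saline was lost in the fits without anti-RGMb mouse 3 (0.55, adjusted p = 0.0543) and without saline mouse 1-2 (0.52, adjusted p = 0.0574). It was also lost with experiment 1 fitted alone (0.51, adjusted p = 0.0724, limma). Under the exact permutation the anti-RGMb minus isotype call was lost (adjusted p = 0.0586), as was that against saline (p = 0.005, adjusted p = 0.0583). Against saline that p is the smallest possible, and no gene passed. The isotype rise over saline was 0.82 in experiment 1 and 1.85 in experiment 2 (difference 1.03 ± 0.17, adjusted p = 0.0097), and anti-RGMb minus isotype was -0.30 and -1.18 (difference -0.88 ± 0.17, adjusted p = 0.0395).

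Lrrc32 encodes GARP, which holds latent transforming growth factor beta on the surface of activated regulatory T cells. It did not follow the others. It read 553.0, 559.9 and 516.4 in anti-RGMb, 408.3, 430.4 and 437.1 in isotype and 501.2, 444.7 and 511.5 in saline mice of experiment 1, and 1416.6, 1594.2 and 1481.6 with anti-RGMb, 1492.2 and 1570.1 with isotype and 1629.3, 1511.4 and 1567.6 with saline in experiment 2. In experiment 1 isotype mice were the lowest group without overlap, and in experiment 2 all groups overlapped. Isotype minus saline was -0.13 ± 0.07 (adjusted p = 0.153), anti-RGMb minus isotype 0.18 ± 0.07 (adjusted p = 0.0722) and anti-RGMb minus saline 0.05 ± 0.06 (adjusted p = 0.789), none past by limma. The anti-RGMb minus isotype difference did pass when anti-RGMb mouse 1-2 was left out (0.21, adjusted p = 0.0311), and likewise for isotype mouse 2-2 (0.22, adjusted p = 0.0301). Isotype was lower than saline and past after centring arrays on their medians (-0.16, adjusted p = 0.0371) and with array weights (-0.20, adjusted p = 0.0363). Endothelial markers, which share GARP, had 1 of 12 genes higher and 11 lower in isotype against saline mice and 10 higher and 0 lower in anti-RGMb against isotype mice. Their summed level, as a percentage of the saline mean, ran 81.7 to 93.9 in anti-RGMb, 64.4 to 80.2 in isotype and 95.4 to 102 in saline mice. Platelet markers had 6 of 8 genes lower in isotype than in saline mice and 5 of 8 higher in anti-RGMb than in isotype mice. The part of either cell type in the Lrrc32 level was not tested.

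**Figure D2:**
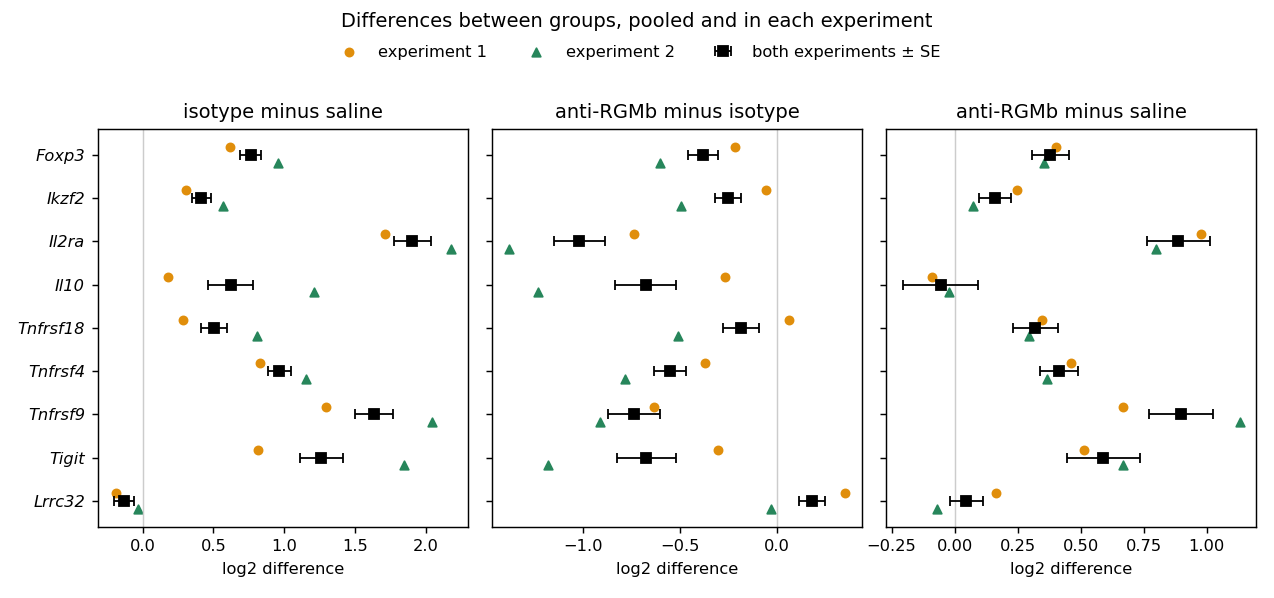
Log2 difference of each member in the 3 comparisons, 1 panel each with its own x axis. Squares are the pooled limma differences ± SE, circles experiment 1 and triangles experiment 2. For isotype minus saline the triangle lies right of the circle for all 9 members, and Il2ra has the pooled values farthest from 0 there (1.91) and for anti-RGMb minus isotype (-1.02).

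The sign of the difference between experiments was shared. Isotype minus saline was more positive in experiment 2 for 9 of 9 members and anti-RGMb minus isotype more negative for 9 of 9, with both comparisons resting on the same 5 isotype mice, 2 of them in experiment 2. These signs were not counted over all genes. The all-gene median was -0.04 in experiments 1 and 2 for isotype minus saline, and 0.01 and 0.04 for anti-RGMb minus isotype. Past the threshold were 2 members in the first comparison (Il10 and Tigit, with 0.668% of all genes past) and 4 in the other (Ikzf2, Il10, Tnfrsf18 and Tigit, with 0.471%). Anti-RGMb minus saline had 0 members past by limma and 0.0% of all genes. At an unadjusted p under 0.05 it had 3 members, and the share of all genes at that unadjusted threshold was not counted. Within single experiments, in the model of both, isotype against saline gave 7 members higher in experiment 1 (20.4% of all genes passed) and 8 in experiment 2 (29.6%), with 0 lower in either. Anti-RGMb against saline gave 7 higher in experiment 1 (3.86%) and 5 in experiment 2 (3.31%), again with 0 lower. In experiment 1 anti-RGMb against isotype gave 3 members lower (Il2ra, Tnfrsf4 and Tnfrsf9) and 1 higher (Lrrc32), where 6.48% of all genes passed, and in experiment 2 it gave 8 lower and 0 higher, where 19.9% passed. The call of 4 members in anti-RGMb minus isotype fell to between 0 and 4 when single mice were left out, to 0 after quantile normalization and to 1 after centring arrays on their medians. Shares of all genes were not counted for these alternatives. The groups did not overlap in either experiment for 7 members in isotype over saline (11.7% of all genes), 3 members in anti-RGMb under isotype (Il2ra, Tnfrsf4 and Tnfrsf9, 7.26%) and 6 members in anti-RGMb over saline (4.7%). In the order of group means, anti-RGMb lay between saline and isotype for 6 of 9 members in experiment 1 and for 7 of 9 in experiment 2. This order was not counted over all genes, so it is not shown to be particular to the members.

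T cell markers were counted beside the members. Of 22 measured, 16 were higher and 1 lower (Lef1, of naive T cells) in isotype against saline mice, 0 higher and 13 lower in anti-RGMb against isotype mice, and 2 higher (Cd4 and Il7r) and 0 lower in anti-RGMb against saline mice, where 20 did not pass. The median marker difference was 0.41, -0.30 and 0.11 in these comparisons. Of the 3 Cd3 genes, 3 were higher, then 2 lower, then 0 past by limma. Cd4 was 0.96 ± 0.13 higher in isotype than in saline mice (adjusted p = 8.3e-06, limma), and Cd8a was at 0.12 (adjusted p = 0.55, not past). The summed T cell markers, as a percentage of the saline mean, ran 94.6 to 149 in anti-RGMb, 130 to 175 in isotype and 88.5 to 110 in saline mice, and Trat1 was below the lower quartile on all arrays. The mean of Cd3d, Cd3e and Cd3g, the chains of the T cell receptor complex, stood 0.17 ± 0.29 log2 units above saline in anti-RGMb mice (SD, n = 6) and 0.55 ± 0.17 in isotype mice (SD, n = 5). In anti-RGMb mouse 1 it stood 0.68 above saline, the highest of its group and within the isotype range of 0.41 to 0.84. All arrays were therefore also set relative to these 3 genes.

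Relative to the Cd3 genes, 4 members remained past in isotype over saline: Il2ra (1.37 ± 0.15), Tnfrsf9 (1.10 ± 0.16), Tigit (0.73 ± 0.16) and Tnfrsf4 (0.43 ± 0.15, adjusted p = 0.00607, limma). On this scale, which moves every gene down by the rise of the Cd3 genes, 3.48% of all genes were higher and 87.3% lower. Foxp3 was at 0.23 ± 0.15 (adjusted p = 0.14), Ikzf2 at -0.12 and Tnfrsf18 at -0.03, none past, and Lrrc32 was lower (-0.67 ± 0.15). Anti-RGMb was below isotype for Il2ra (-0.66 ± 0.15, adjusted p = 0.000397) and Tnfrsf9 (-0.38 ± 0.16, adjusted p = 0.0329), where 1.71% of all genes were lower and 66.6% higher, and Lrrc32 was above isotype (0.54 ± 0.15, adjusted p = 0.00322). Foxp3 stood at -0.02 ± 0.15 (adjusted p = 0.884). Anti-RGMb against saline kept Il2ra (0.71 ± 0.14) and Tnfrsf9 (0.72 ± 0.15), where 1.53% of all genes were higher and 1.08% lower. 2 further scales were added after the values were seen. Relative to all 22 T cell markers, isotype over saline had 5 members higher and 1 lower (4.64% and 84.5% of all genes), with Foxp3 0.35 higher and past (adjusted p = 0.0032). Anti-RGMb against isotype had 1 higher and 5 lower on that scale (64.2% and 2.65% of all genes), and anti-RGMb against saline 3 higher and 0 lower (2.09% and 1.48%). Relative to Cd4 alone, isotype against saline had 2 members higher and 4 lower (1.66% and 95.1% of all genes), the lower ones being Ikzf2 (-0.55, adjusted p = 0.00095), Tnfrsf18 (-0.46, adjusted p = 0.0054), Il10 (-0.34, adjusted p = 0.0467) and Lrrc32 (-1.09). Foxp3 was at -0.20 there (adjusted p = 0.218). On the Cd4 scale anti-RGMb against isotype had 1 higher and 1 lower (84.5% and 1.18% of all genes). Anti-RGMb against saline had 2 higher and 3 lower (1.03% and 92.1%), the lower ones being Ikzf2 (-0.33), Il10 (-0.54) and Lrrc32 (-0.44). The Cd3 scale does not separate regulatory from other T cells, and Il2ra, Tnfrsf9 and Tigit are also made by activated effector cells.

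**Figure D3:**
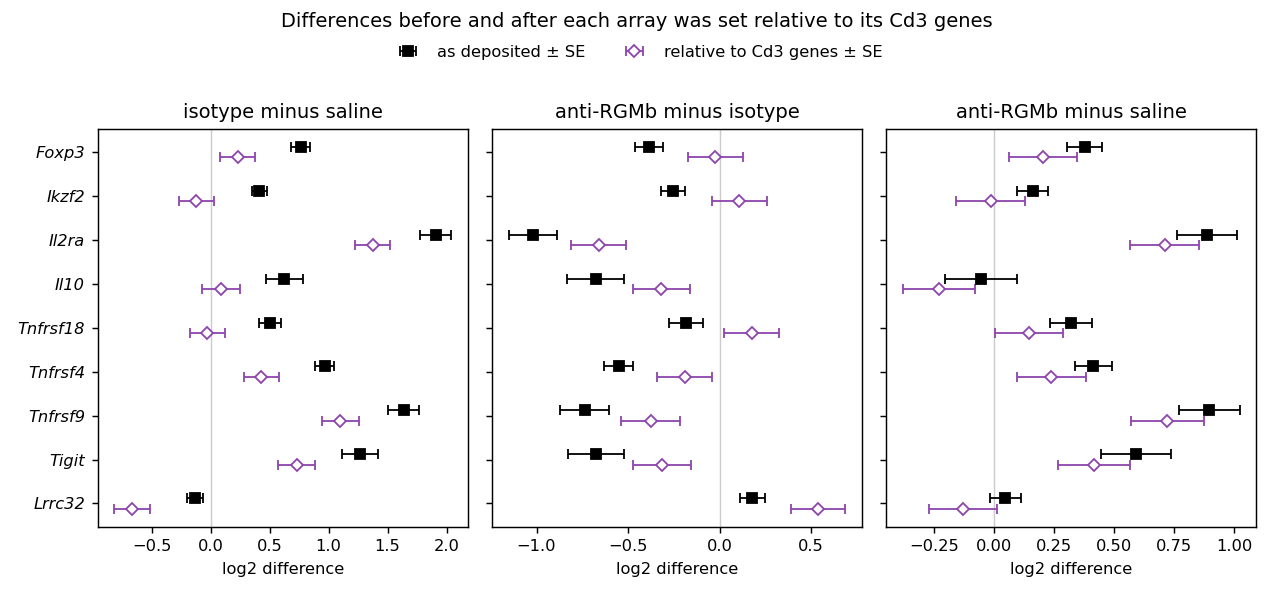
Log2 differences ± SE of the 9 members as deposited (black squares) and after each array was set relative to the mean of its Cd3 genes (open diamonds), in the same 3 comparisons. For anti-RGMb minus isotype Foxp3 sits at -0.38 as deposited and at -0.02 relative to the Cd3 genes, while Il2ra stays below 0 on both scales.

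By experiment, Foxp3 minus the Cd3 mean averaged 0.02 ± 0.11 in anti-RGMb mice (SD, n = 3), 0.12 ± 0.10 in isotype mice (SD, n = 3) and lay between -0.15 and 0.11 in saline mice of experiment 1, so the 3 groups overlapped. In experiment 2 it averaged 0.39 ± 0.16 in anti-RGMb mice (SD, n = 3) and 0.33 ± 0.15 in isotype mice (SD, n = 2), and lay between -0.29 and 0.27 in saline mice. There the Cd3 mean of anti-RGMb mice was near that of saline (-0.03), while Foxp3 was 0.36 above it.

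**Figure D4:**
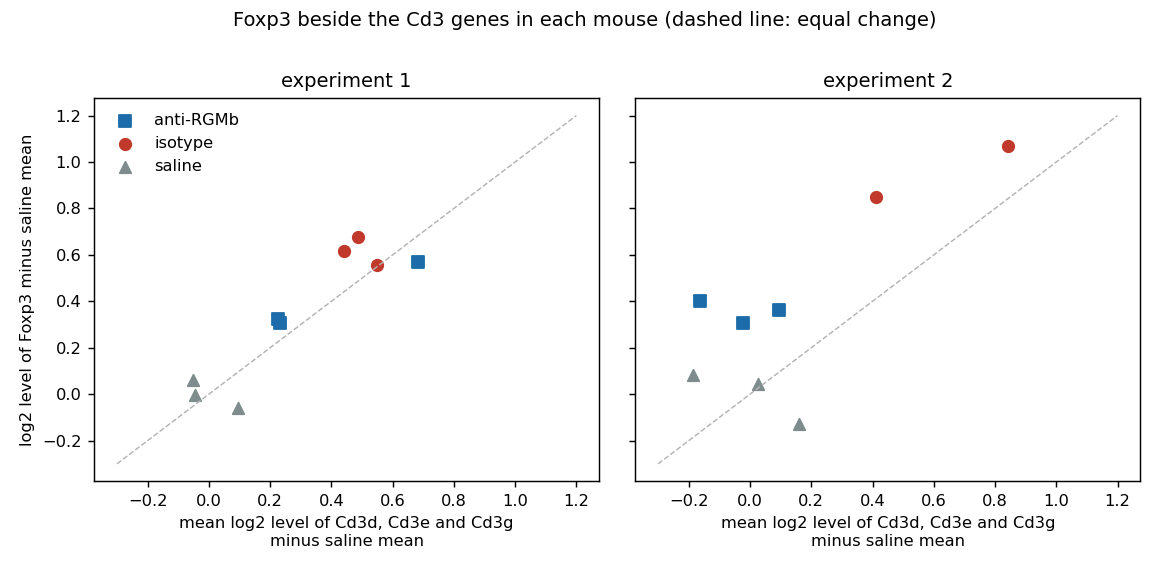
Foxp3 (y axis) against the mean of Cd3d, Cd3e and Cd3g (x axis) in each mouse, both as log2 level minus the saline mean of the experiment, with anti-RGMb as squares, isotype as circles and saline as triangles. In experiment 1 all mice lie within 0.20 log2 units of the dashed line of equal change. In experiment 2 all 3 anti-RGMb and both isotype mice lie above it, as do saline mice 2-2 (by 0.27) and 3-2 (by 0.016). Saline mouse 1-2 lies below it (-0.29).

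Other genes known from regulatory T cells, 25 measured, had 17 higher and 6 lower in isotype against saline mice, 3 higher and 12 lower in anti-RGMb against isotype mice and 9 higher and 1 lower in anti-RGMb against saline mice. Irf4, a transcription factor of effector regulatory T cells that plasma cells and macrophages also use, was 2.15 ± 0.09 higher in isotype than in saline mice (adjusted p = 1.55e-11, limma) and at -1.19 ± 0.09 in anti-RGMb relative to isotype mice (adjusted p = 8.06e-07). The costimulatory receptor gene Icos stood at 1.39 ± 0.12 and -0.61 ± 0.12 in the same comparisons, and Cd83 at 1.27 ± 0.10 and -0.53 ± 0.10. Capg, an actin-capping protein gene also high in macrophages, stood at 1.50 ± 0.11 and -0.75 ± 0.11, and all of these passed in both comparisons. Markers of other cells shared these directions: macrophage and monocyte markers had 11 of 14 higher in isotype against saline mice and 10 lower in anti-RGMb against isotype mice, and proliferation genes 11 of 11 higher and then 11 of 11 lower. Dendritic cell markers had 8 of 13 higher in the first of these and 7 lower in the other, and B cell markers 8 of 11 higher and then 9 lower. Their part in these values was not tested.

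Of 16 measured ligand and partner genes of the members, 8 were higher and 2 lower in isotype against saline mice, 1 higher and 4 lower in anti-RGMb against isotype mice and 3 higher and 0 lower in anti-RGMb against saline mice. Il2rb, the chain that pairs with CD25 and signals, was 0.80 ± 0.15 higher in isotype than in saline mice (adjusted p = 0.00039, limma) and at -0.44 ± 0.15 in anti-RGMb relative to isotype mice (adjusted p = 0.048). The IL-10 receptor genes shared their signs. Il10ra was higher by 1.17 ± 0.13 in isotype mice than in saline mice, and its anti-RGMb minus isotype difference of -0.35 was not past (adjusted p = 0.061). Il10rb was at 0.15 and -0.21 and passed in both. Tgfb1, whose product GARP binds, stood at 0.55 ± 0.06 and -0.28 ± 0.06, and Nrros, which holds the same latent cytokine on macrophages and microglia, at 0.84 ± 0.06 and -0.39 ± 0.06. The TIGIT ligand gene Pvr went the other way (-0.23 and 0.23 ± 0.08, adjusted p = 0.034 and 0.046). Il2, Tnfsf18 and Tnfsf4, the ligand genes of CD25, GITR and OX40, were below the lower quartile on all 17 arrays.

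Among 25 measured signals and factors that act upstream of Foxp3, 11 were higher and 4 lower in isotype against saline mice, 3 higher and 9 lower in anti-RGMb against isotype mice, and 2 higher and 1 lower in anti-RGMb against saline mice. Stat5a, which carries the interleukin-2 signal to the nucleus, was at 0.44 ± 0.06 and -0.31 ± 0.06 in the first 2 comparisons (adjusted p = 5.9e-06 and 0.00055, limma), and Stat5b was not past in either. Nfatc2, a calcium-responsive factor of T cell activation, was at 0.57 ± 0.08 and -0.34 (adjusted p = 2.1e-05 and 0.005). Smad3, which relays transforming growth factor beta, was lower in isotype than in saline mice (-0.18, adjusted p = 0.0088) and higher in anti-RGMb than in isotype mice (0.25 ± 0.05, adjusted p = 0.0021). The DNA methylation genes Uhrf1 (1.48 ± 0.12 and -0.84 ± 0.12) and Dnmt1 (0.55 and -0.38 ± 0.08) rose and fell in these comparisons, as the proliferation genes did.

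Markers of T helper 2 and group 2 innate lymphoid cells had 9 of 13 higher and 1 lower in isotype against saline mice and 1 higher and 6 lower in anti-RGMb against isotype mice. Their summed level, as a percentage of the saline mean, ran 108 to 118 in anti-RGMb, 115 to 144 in isotype and 95.6 to 103 in saline mice. Natural killer cell markers, which share Tigit and Tnfrsf9, had 2 of 14 higher and 4 lower, then 2 higher and 1 lower, and Klrb1c, Klre1, Klra8 and Cd160 were below the lower quartile on all arrays. Thymus markers had 1 of 9 higher and 1 lower in each of these comparisons, with Rag1, Rag2, Dntt and Arpp21 below the lower quartile throughout. Mast cell and basophil markers had 8 of 11 higher and 2 lower, then 2 higher and 1 lower, and lymph node stroma markers 1 of 6 higher, then 2 lower, Cxcl13 among them (3.12 and -1.90).

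The genes most like Foxp3 across the 17 arrays, after the mean of each experiment was subtracted, were Trim29 (Pearson r = 0.99), Psrc1 (0.98), Ptpn6 (0.98), Plcb2 (0.98) and Ciita (0.98). Of the members, Tnfrsf4 stood at r = 0.96, ranked 45 of all genes, Il2ra at 0.94, Tigit at 0.94, Tnfrsf18 and Tnfrsf9 at 0.93, Ikzf2 at 0.90, Il10 at 0.70 and Lrrc32 at -0.29. These points share the differences between groups. With the group means of each experiment subtracted too, so that mice of 1 group are compared, the genes most like Foxp3 were 5033430I15Rik (r = 0.90), Olfr1467 (0.84), Hook2 (0.84), Trim29 (0.84) and Olfr43 (0.84). On this scale Tnfrsf18 was at 0.66, Tnfrsf4 at 0.40, Tigit at 0.07, Tnfrsf9 at 0.06, Il2ra at -0.02, Il10 at -0.24, Ikzf2 at -0.34 and Lrrc32 at -0.36, all over 17 arrays that share their array's scaling.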

How the data were processed

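Per the submitters' processing notes, the authors made the deposited intensity values with RMA, which corrects, normalizes and summarises array probes. No version of it is recorded in the sources used here. The deposited values are RMA-processed linear probe set intensities of the authors, which were log2 transformed here with no added constant. Of 24679 probe sets, 21354 had 1 gene symbol and were used, 1275 had several and 2050 none. For 893 genes with several, the brightest was kept. Every sample column was mapped to a mouse by its title. Symbols were matched as in the platform annotation and through Entrez IDs.

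A linear model of 3 group means with the experiment as a term was fitted to 19751 genes with limma 3.58.1 in R 4.3.3 (eBayes), 2-sided, with Benjamini-Hochberg adjustment over all genes of a comparison. A model of 6 means gave within-experiment differences and their contrast between experiments. The fit was tested on simulated data. The members and gene lists were chosen with earlier results of these data known. Beyond the members, up to 4 genes of a list with the smallest p in isotype minus saline and up to 4 in anti-RGMb minus isotype could be named. Cd8a, Stat5b, Lef1 and the genes below the lower quartile fall outside this rule and were chosen after their values were seen. For likeness to Foxp3, the 5 genes with the highest Pearson r were named on each of the 2 scales.

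Replicates are mice, and their number limits the precision of every value. Alternatives covered scaling, filters, the experiment term, an exact permutation and leaving out each mouse.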

Additional observations from a re-analysis of the deposited data

Results flagged for a closer look

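In Foxp3, anti-RGMb mouse 1 was the highest of its group, at 0.57 log2 units above the saline mean of its experiment, with the other 5 mice between 0.31 and 0.40. The same mouse was highest for Tnfrsf18, at 0.54 against 0.24 to 0.30 in the others, and its Cd3 mean was 0.68 above saline, the highest of its group. Without it, Tnfrsf18 passed in anti-RGMb minus isotype (-0.25, adjusted p = 0.0484, limma), where leaving out other single mice gave differences as near 0 as -0.09 (without isotype mouse 1-2, adjusted p = 0.468). In Il10, saline mouse 2-2 was the lowest, at -0.12, on a gene below the lower quartile of every array. Such gaps were looked for in 27 sets of values and found in 3. A chance rate of about 1 in 20 holds for independent values and cannot be set against this count. The same mice recur across genes, and the Il10 values of saline mice in experiment 1 are identical.

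The change differed between experiments 1 and 2 in 6 of 27 tests, each an interaction in limma adjusted over all genes. For isotype minus saline, experiment 2 minus experiment 1 was 1.03 for Il10 (adjusted p = 0.00961) and 1.03 for Tigit (adjusted p = 0.0097). For anti-RGMb minus isotype it was -0.44 for Ikzf2 (adjusted p = 0.0378), -0.96 for Il10 (adjusted p = 0.0262), -0.58 for Tnfrsf18 (adjusted p = 0.0427) and -0.88 for Tigit (adjusted p = 0.0395). Each uses the 2 isotype mice of experiment 2.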

How the results depend on the processing

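The count of members called was 8 for isotype against saline, 7 for anti-RGMb against isotype and 6 for anti-RGMb against saline. It became 5, 3 and 2 relative to the Cd3 genes, and 0, 0 and 0 without a term for the experiment (2, 0 and 0 at an unadjusted p under 0.05, limma), a fit in which the level of each experiment enters the spread. With experiment 1 fitted alone, anti-RGMb minus isotype called 3, 2 lower and 1 higher (Lrrc32), with Tnfrsf4 lost (-0.37, adjusted p = 0.0647), and anti-RGMb minus saline called 5, against 4 with experiment 2 alone. The share of all genes called was not counted for these fits of single experiments or for the fit without the experiment term. Under an exact permutation within experiments the count was 7 for isotype minus saline (Il10 lost), where 6548 of all 19751 genes were called. It was 3 for anti-RGMb minus isotype (Foxp3, Ikzf2, Il10 and Tigit lost), where 2557 of all genes were called. For anti-RGMb minus saline it was 0 (7 at an unadjusted p under 0.05). There 400 arrangements allow no p below 0.005, and no gene of all 19751 was called (4237 at an unadjusted p under 0.05). In the paired fit, with the mouse number as a replicate block, the counts were 8, 7 and 5, but same-numbered mice share only a number: their residuals correlated at -0.60 to 0.30, over 0.1 in 3 of 16 pairs. Leaving out 1 mouse gave 8, 7 to 8 and 4 to 6. For the paired fit and the fits with 1 mouse left out, the share of all genes called was not counted either. The signs turned relative to the Cd3 genes for Ikzf2 (-0.12) and Tnfrsf18 (-0.029) in isotype minus saline. In anti-RGMb minus isotype they turned for Ikzf2 (0.11) and Tnfrsf18 (0.18), and in anti-RGMb minus saline for Ikzf2 (-0.014) and Lrrc32 (-0.13). None of these passed on the Cd3 scale. Relative to Cd4, Ikzf2 (-0.55), Tnfrsf18 (-0.46) and Il10 (-0.34) were lower and past in isotype minus saline.

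The alternatives for the last 2 results were chosen after seeing the data. Members whose anti-RGMb minus isotype change differed between experiments numbered 4, and 0 after quantile normalization, 1 after median centring and 0 to 4 with 1 mouse left out. It was at most 2 in 14 of those 17 fits. Relative to T cells, anti-RGMb minus isotype called 3 members on the Cd3 genes, 6 on all T cell markers and 2 to 5 with 1 mouse left out (5 without isotype mouse 2 or 3), and anti-RGMb minus saline called 2 on the Cd3 genes, both higher, and 5 on Cd4, 2 higher and 3 lower. Lrrc32 in anti-RGMb minus isotype was also past under median centring, quantile normalization, array weights and the filter on dim genes, and lower in isotype minus saline under median centring (-0.16) and array weights (-0.20), where the count was 8 higher and 1 lower. The share of all genes called was not counted after quantile normalization, median centring, array weights or the filter on dim genes. It was likewise not counted with 1 mouse left out. The causes were not tested.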
